A study of Mus musculus with 4 samples.

Results

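Metallothioneins and zinc transport were described through 5 genes: the metallothioneins Mt1 and Mt2, the transcription factor Mtf1, the zinc exporter Slc30a1 and the zinc importer Slc39a14. They are 5 of 15102 genes tested in a shin muscle, the tibialis cranialis. The genes were chosen by name with their differences between ProMyo and saline muscle already in view, and the 1 probe set that stands for each gene was selected on its mean signal over the 4 arrays. All differences between ProMyo and saline muscle at these 5 genes are therefore given as a description, without a test. All 5 passed the filter on dim probe sets.

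The muscles came from 8 male C57Bl/6 mice that were moved to a high fat diet at 8 weeks of age and were 22 weeks old at collection, so that every sample shares the diet. After 4 weeks on the diet, 1 leg received AAV8 ProMyo and the other leg saline, and both muscles were taken 10 weeks later. AAV8 is an adeno-associated virus serotype that infects muscle fibres well, and ProMyo is the myostatin propeptide, which holds this growth inhibitor inactive. Each group had 2 arrays, 1 with pooled RNA of animals 1-4 and 1 with that of animals 5-8, so 4 mice stand behind each value and differences between single mice were not measured. The control leg received saline rather than an empty vector, and the promoter of the vector is not given in the sources used here, so effects of the propeptide and of the virus cannot be told apart. In RNA of whole muscle, fewer cells of a type and less RNA per cell cannot be told apart either.

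Metallothioneins are small cysteine-rich proteins that bind zinc and copper. Free zinc activates MTF-1, the zinc finger protein encoded by Mtf1, which binds metal response elements in the promoters of Mt1, Mt2 and Slc30a1. Slc30a1 (ZnT1) exports zinc across the plasma membrane, and Slc39a14 (ZIP14) imports zinc and also iron and manganese. Glucocorticoids and inflammatory signals are further known inducers of metallothioneins, and metallothionein transcripts are known to be raised in many forms of muscle wasting.

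The promoters of Mt1, Mt2 and Slc30a1 are shown because these 3 genes are known MTF-1 targets, and the search for its element bears on them. Each line gives the 300 bases from 250 before to 50 after the RefSeq start in GRCm38.p6, on the plus strand, at chr8:94178839-94179138 for Mt1, chr8:94172368-94172667 for Mt2 and chr1:191906531-191906830 for Slc30a1. Capitals mark the core of the metal response element, searched as TGCACNC and TGCGCNC on both strands.
Mt1: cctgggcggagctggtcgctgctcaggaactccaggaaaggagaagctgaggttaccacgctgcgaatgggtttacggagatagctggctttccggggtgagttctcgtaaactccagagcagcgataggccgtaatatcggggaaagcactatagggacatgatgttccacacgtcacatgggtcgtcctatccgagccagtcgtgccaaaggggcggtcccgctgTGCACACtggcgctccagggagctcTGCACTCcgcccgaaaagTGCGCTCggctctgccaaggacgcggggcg
Mt2: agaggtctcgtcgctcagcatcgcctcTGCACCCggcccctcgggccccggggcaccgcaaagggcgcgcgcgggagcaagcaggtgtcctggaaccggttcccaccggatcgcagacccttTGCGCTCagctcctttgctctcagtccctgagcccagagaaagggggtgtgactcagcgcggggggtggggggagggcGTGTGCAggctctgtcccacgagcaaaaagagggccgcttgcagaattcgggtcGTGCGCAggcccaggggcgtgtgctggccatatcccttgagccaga
Slc30a1: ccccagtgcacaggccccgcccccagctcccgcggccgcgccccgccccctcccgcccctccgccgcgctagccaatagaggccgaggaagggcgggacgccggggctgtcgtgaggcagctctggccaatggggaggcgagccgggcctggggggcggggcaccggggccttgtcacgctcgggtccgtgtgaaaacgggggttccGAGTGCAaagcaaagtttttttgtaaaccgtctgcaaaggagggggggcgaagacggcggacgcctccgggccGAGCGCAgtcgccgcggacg
No 2 of these matches overlap.

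The Mt1 window held 3 cores, at -23, 2 and 20 bases from the RefSeq start, all on the plus strand. The cores at 2 and 20 lie after the start used. Bases outside the window were not searched, so the count need not cover all elements of the gene. In the Mt2 window 4 cores were found, at -223 and -128 on the plus strand and at -50 and 4 on the minus strand. Slc30a1 had 2, at -43 and 30, both on the minus strand. At least 1 core was present in 25.7% of the 32851 promoter windows of this length, at least 2 in 7.11% and at least 3 in 1.97%. The window of Mtf1 itself contained no core, which says only that these letters are not in these 300 bases. Of the zinc transporter genes of both families, 11 of 20 with a window had a core, or 55.0%, against 28.2% of 27025 genes; base composition was not matched. Mt2 and Mt1 lie beside each other on chromosome 8. Between the end of the Mt2 record (94172618 to 94173567) and the start of the Mt1 record (94178883 to 94180327) were 5315 bases. The RefSeq start from which the Mt1 cores are counted lies inside the Mt1 record, with 5521 bases between it and the Mt2 record. For Slc30a1 the start used also lies inside the gene record, and for Mt2 it is the first base of the record.

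**Figure D1:**
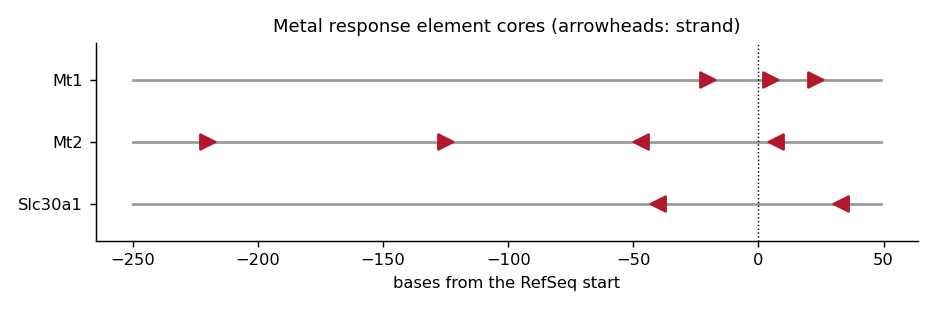
Positions of metal response element cores (arrowheads, pointing in the direction of their strand) in the promoter windows of 3 genes, with the distance from the RefSeq start in bases on the x axis. Mt1 has 3 cores near the RefSeq start used for its window, Mt2 has 4 spread over the window and Slc30a1 has 2.

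Before the results, the arrays themselves differed in ways that touch them. The saline 5-8 array stood apart: its upper quartile was 2.97, where the other arrays had 3.15 to 3.19, and the mean of its hybridization spikes was 11.1, where they had 10.1 to 10.2. Results are therefore also given without it. Fibre markers bore out the labelled tissue, since none of the 10 lay within the Bacillus controls, spots for which no muscle transcript is a target and whose highest value was 0.99.

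Mt1 and Mt2 were lower in ProMyo muscle than in saline muscle of the same mice in both pools, Slc39a14 was higher in both, and Mtf1 and Slc30a1 went in opposite directions in the pools. Lower in both pools were 24% of all genes tested, and higher in both 29%. The size was 1.78-fold for Mt1, 1.59-fold for Mt2 (saline over ProMyo) and 1.44-fold for Slc39a14 (ProMyo over saline). Across all genes, limma called 0 of 15102 at an adjusted p under 0.05, or 0%, with 874 at an unadjusted p under 0.05, so the comparison of 2 arrays against 2 called no gene in either direction. All levels are deposited expression values on the log2 scale, on which 1 unit is a doubling, and levels of different probe sets are not set against each other.

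In saline muscle Mt1 read 5.89 for pool 1-4 and 5.27 for pool 5-8, and in ProMyo muscle 4.95 and 4.55. Both saline arrays were high, both ProMyo arrays were low, and the groups did not overlap. The mean was 5.58 ± 0.44 (SD, n = 2 pools) in saline and 4.75 ± 0.28 (SD, n = 2 pools) in ProMyo muscle. The log2 difference was -0.83 ± 0.27 (SE), with -0.94 in pool 1-4 and -0.72 in pool 5-8, and with the pool as a block its SE was 0.16. Between the pools of 1 group, pool 5-8 read below pool 1-4 by 0.62 in saline and by 0.40 in ProMyo muscle. At Mt1 this shift went the same way in both legs, so it does not measure the error of the difference within a pool. Mt1 was the 1 member that was lower by at least 1.5-fold in both pools, as were 85 genes or 0.563% of those tested. Its difference was the 46th lowest of all genes. Since these values chose the gene, the rank is no evidence of its own.

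The Mt1 signal comes from a probe set of the class with the suffix s, whose probes by the naming of the array can match more than 1 transcript. How much of another metallothionein transcript it reads was not tested. The second Mt1 probe set lay between 0.32 and 0.64 in all arrays, below the highest Bacillus control at 0.99. It carries no usable difference, and averaging both probe sets gave -0.37 for Mt1. Without the saline 1-4 array the Mt1 difference was -0.52, and without saline 5-8 it was -1.14.

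For Mt2 the saline arrays gave 5.30 (pool 1-4) and 4.80 (pool 5-8), and the ProMyo arrays 4.39 and 4.38. Again the groups did not overlap, and the saline 1-4 array was the highest. The mean was 5.05 ± 0.36 (SD, n = 2 pools) in saline and 4.38 ± 0.0075 (SD, n = 2 pools) in ProMyo muscle, a log2 difference of -0.67 ± 0.22 (SE). Within the pools it was -0.92 and -0.42, so the second lay short of 1.5-fold and below the spread of 0.51 between the saline pools. Mt2 has a single probe set of its own on the array. Without the saline 1-4 array its difference was -0.41, and without saline 5-8 it was -0.92. Mt1 and Mt2 were the 2 members whose ProMyo arrays both lay below both saline arrays, as did those of 15.7% of all genes tested.

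**Figure D2:**
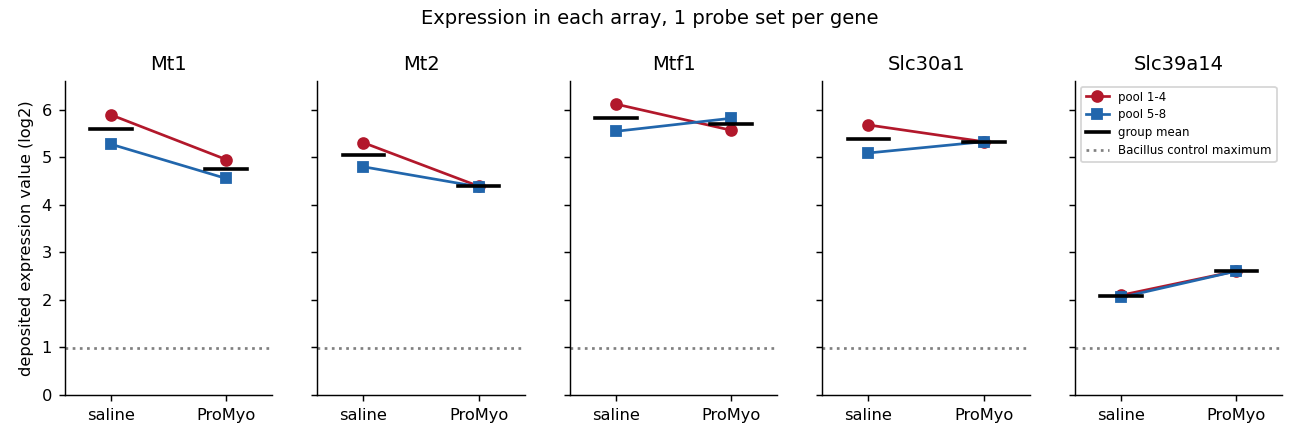
Deposited log2 expression (y axis) of 5 genes in saline and ProMyo muscle; each line joins both legs of 1 pool of 4 mice, bars are group means of 2 pools, and the dotted line is the highest Bacillus control at 0.99. Both lines go down for Mt1 and Mt2 and both go up for Slc39a14. The lines cross for Mtf1, and for Slc30a1 they go opposite ways and meet at the ProMyo end.

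RNA integrity and markers of other cells differed between the legs as well. The excess of the 3' over the 5' probe set of Gapdh, a measure of RNA integrity, was 0.58 and 0.74 in ProMyo and 0.90 and 0.81 in saline arrays. The summed linear signal of the 10 fibre markers was 32680 and 31340 in ProMyo and 30480 and 28550 in saline arrays. Of 9 fibroblast markers, 7 had a negative difference in each pool, where 24% of all genes did. Lum went the other way in both pools, at 0.63. The fibroblast sums were 1638 and 1590 in ProMyo and 1968 and 2145 in saline arrays. Of 11 macrophage markers, 5 had a negative difference in each pool, and Cd163 was higher in both, at 0.37. The macrophage sums were 269.2 and 242 in ProMyo and 324.3 and 278.9 in saline arrays. None of the fibroblast or macrophage markers lay within the Bacillus controls in all 4 arrays. However, Itgam, among the 5 macrophage markers, exceeded them in saline 5-8 alone, at 1.21. The sums of neutrophil, lymphocyte, endothelial, adipocyte and Schwann cell markers overlapped between the groups, and the brightest probe sets of Mmp8, Ltf, Cd3d, Cd79a, Ms4a1 and Lep lay within the Bacillus controls. The part of RNA integrity and of these cell types in the Mt1 and Mt2 values was not tested.

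Mtf1, the sensor upstream of the metallothioneins, gave 6.11 and 5.54 with saline (pools 1-4 and 5-8), and 5.56 and 5.82 with ProMyo. The groups overlapped, and the saline 1-4 array alone stood above the rest. The mean difference was -0.14 ± 0.25 (SE), made of -0.55 in pool 1-4 and 0.27 in pool 5-8; without the saline 1-4 array it was 0.15, and without saline 5-8 it was -0.42. A second Mtf1 probe set above background in all arrays read 0.06 and -0.31 in the pools. Another, at 1.09 to 1.78, read -0.32 and -0.70, with both ProMyo arrays below both saline arrays. The 3 readable probe sets thus had the signs down and up, up and down, and down in both pools. The other 2 Mtf1 probe sets reached above the Bacillus controls in 1 array of 4 and in 0 of 4.

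Slc30a1, the exporter with its own metal response elements, read 5.68 in saline 1-4 and 5.09 in saline 5-8. Both ProMyo arrays read 5.32, between the saline values. The mean difference was -0.06 ± 0.24 (SE), with -0.35 in pool 1-4 and 0.24 in pool 5-8; those are also the values without saline 5-8 and without saline 1-4. The equal ProMyo values do not give a spread: 565 genes, or 3.74%, had the same value in both ProMyo arrays within 5e-05. The second Slc30a1 probe set lay within the Bacillus controls, at 0.61 to 0.79.

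In pool 1-4, therefore, Mt1, Mt2, Mtf1 and Slc30a1 were all lower in the ProMyo leg, by 0.94, 0.92, 0.55 and 0.35 log2 units. In pool 5-8 the metallothioneins were lower and Mtf1 and Slc30a1 were higher. The saline 1-4 array read above saline 5-8 at all 4 of these genes, by 0.51 to 0.62, where the median of saline 5-8 minus saline 1-4 over all genes was -0.09. Mtf1 and Slc30a1 were not among the 24% of genes that were lower in both pools, and opposite directions in the pools were seen at 42.6% of genes.

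Slc39a14, the importer, went the other way: its saline arrays gave 2.10 (pool 1-4) and 2.05 (pool 5-8), and both ProMyo arrays 2.60. The ProMyo arrays both lay above the saline arrays, as at 17.8% of genes tested, and all 4 values lay above the Bacillus controls. The difference was 0.53 ± 0.15 (SE), with 0.51 in pool 1-4 and 0.55 in pool 5-8, both just short of 1.5-fold (0.58). Between pools of 1 group the values differed by at most 0.05, but this small spread comes from 2 arrays and the SE of the fit borrows from all genes.

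The other Slc39a14 probe sets did not share this difference. The next brightest read 0.06 in pool 1-4 and -0.63 in pool 5-8, at levels of 0.84 to 1.46 that reached above the Bacillus controls in 3 of 4 arrays. The last 2 lay below the filter, with differences of 0.00 and -0.30. Their mean with the first, over the probe sets above the filter, was 0.12. Which Slc39a14 transcripts each probe set reads was not tested.

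**Figure D3:**
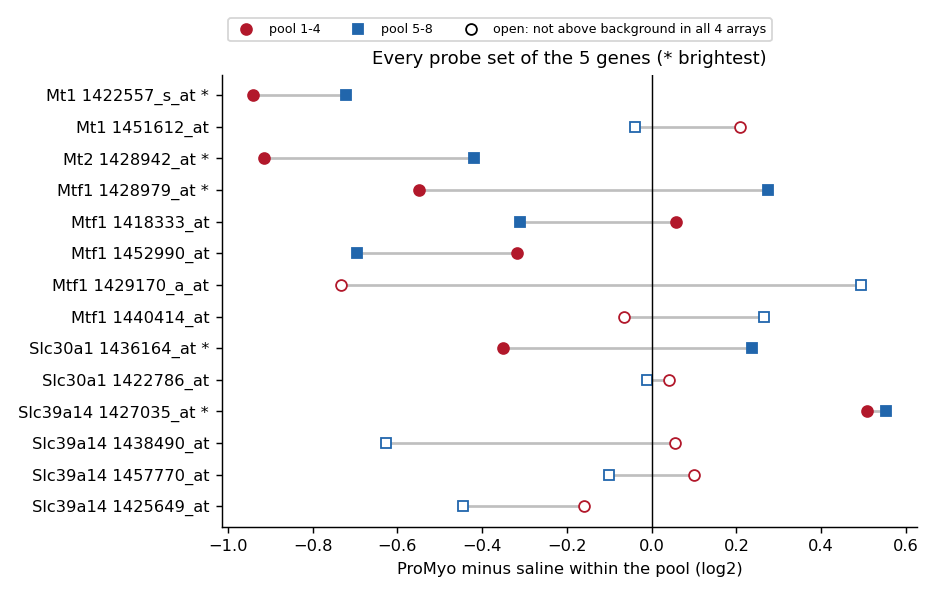
ProMyo minus saline in pool 1-4 (circles) and pool 5-8 (squares), in log2 units on the x axis, for all 14 probe sets of the 5 genes; stars mark the brightest per gene and open symbols those not above 0.99 in all 4 arrays. The brightest probe sets of Mt1 and Mt2 lie left of 0 and that of Slc39a14 right of 0 in both pools.

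**Figure D4:**
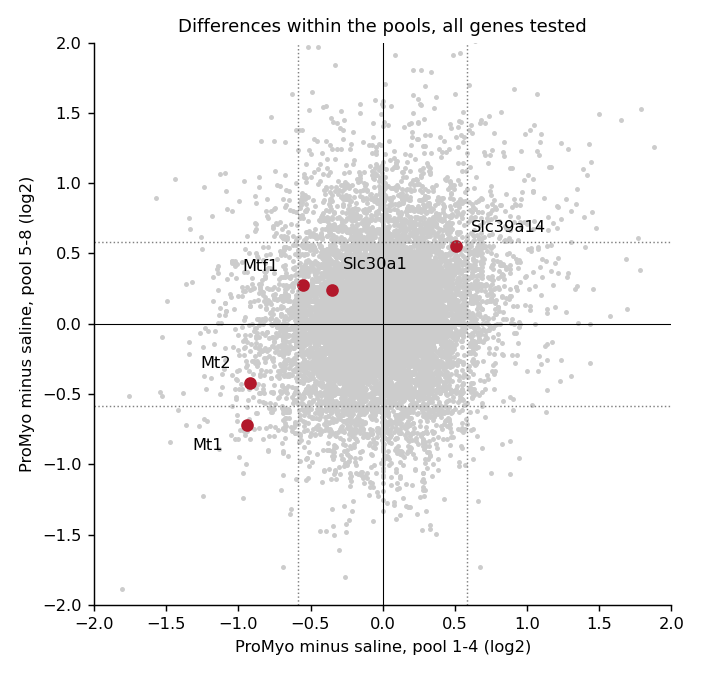
ProMyo minus saline in pool 1-4 (x axis) and in pool 5-8 (y axis), in log2 units, for the genes tested (grey) and the 5 described (red); dotted lines mark 1.5-fold and 4 genes lie outside the axes. Mt1 lies past 1.5-fold in both pools, Mt2 in pool 1-4, and Mtf1 and Slc30a1 lie left of 0 and above 0.

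The remaining metallothioneins were dim. Mt3, known from brain, read 1.35 and 1.56 in ProMyo and 1.69 and 0.86 in saline arrays, with overlapping groups and a difference of 0.18. Mt4, known from stratified epithelium, lay within the Bacillus controls in all arrays and below the filter. Of the 4 genes of the family, Mt1 and Mt2 were the ones above the Bacillus controls in all arrays.

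The zinc transporters gave no common direction. Of the 22 transporter genes tested, Slc30a1 and Slc39a14 included, limma called 0 higher and 0 lower. A negative difference in each pool was seen at 5 and a positive one at 4, Slc39a14 among them, against 24% and 29% of all genes. Among the 5, the brightest probe sets of Slc30a10, Slc39a6 and Slc39a12 lay within the Bacillus controls. Without saline 5-8, the array that stands apart, 10 were lower and 5 higher in both comparisons with saline 1-4, which share that array; of all genes, 36.9% were lower and 29.5% higher in this setting. The median difference was -0.05 for the 10 exporters and -0.04 for the 12 importers, against 0.01 over all genes.

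Among the exporters, Slc30a4, which loads zinc into vesicles, was higher at 0.38 ± 0.19 (limma, adjusted p = 0.83), with 6.52 and 6.58 in ProMyo against 5.98 and 6.35 in saline arrays. Its groups did not overlap, with ProMyo higher, as at 17.8% of all genes. Slc30a5, a transporter of the early secretory pathway, differed by 0.95 in pool 1-4 and by -0.02 in pool 5-8. Slc30a2, which MTF-1 can also induce, stood at -0.31 ± 0.29 (limma, adjusted p = 0.89), with -0.52 and -0.10 in the pools. Slc30a9, a mitochondrial zinc exporter, stood at -0.07, and Slc30a6 and Slc30a7, of the secretory pathway, had opposite signs in the pools. Slc30a10 lay within the Bacillus controls.

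Among the importers, Slc39a1, at the plasma membrane, was higher at 0.28 ± 0.16 (limma, adjusted p = 0.83), with 6.56 and 6.44 in ProMyo against 6.24 and 6.19 in saline arrays. Slc39a13, an intracellular zinc transporter needed in connective tissue, was lower at -0.34 ± 0.19 (limma, adjusted p = 0.83). Its pools gave -0.10 and -0.58, and its groups did not overlap, with ProMyo lower, as at 15.7% of all genes. Slc39a10, which MTF-1 is known to repress, had saline values of 4.97 and 4.68, and ProMyo values of 3.88 (pool 1-4) and 4.83 (pool 5-8). The ProMyo 1-4 array alone was low, so the differences were -1.09 in pool 1-4 and 0.15 in pool 5-8. A second Slc39a10 probe set, above the Bacillus controls in all arrays, had the opposite signs, with 0.31 and -0.08. Slc39a3 stood at -0.36, and its second probe set at 0.00. The brightest probe sets of Slc39a2, Slc39a6, Slc39a8 and Slc39a12 lay within the Bacillus controls; another Slc39a6 probe set exceeded them in 1 array, with 1.12 in ProMyo 5-8.

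**Figure D5:**
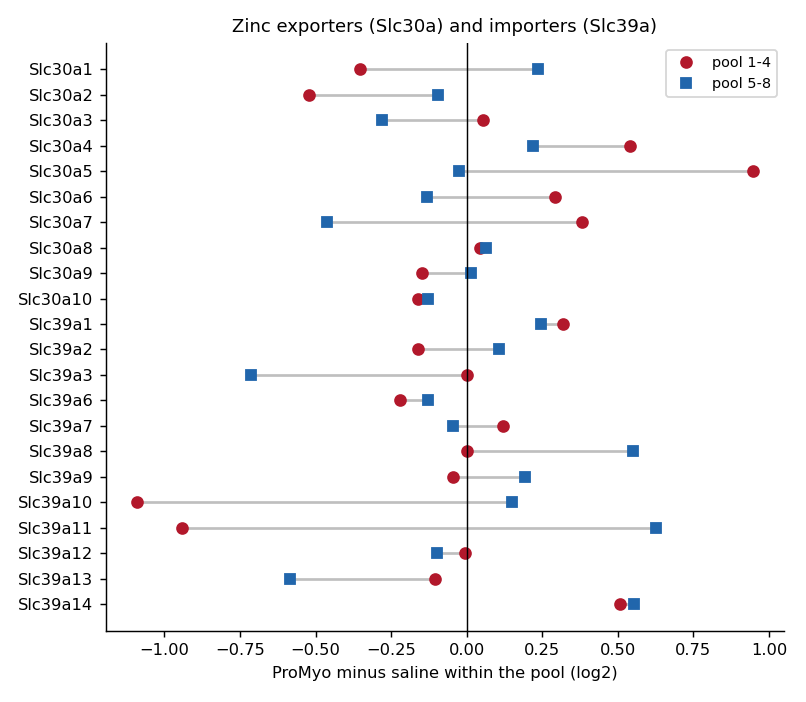
ProMyo minus saline in pool 1-4 (circles) and pool 5-8 (squares), in log2 units on the x axis, for the 22 zinc transporter genes tested, 1 probe set each. Slc30a4, Slc39a1 and Slc39a14 lie right of 0 in both pools by more than 0.2, and Slc39a13 and Slc30a2 lie left of 0 in both.

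Of 9 known MTF-1 targets, induced or repressed, all tested, 5 were lower in each pool and 0 higher in each, and limma called 0. Among all genes the shares were 24% and 29%. Without saline 5-8, 7 of 9 were lower than the 1 remaining saline array in both ProMyo arrays, as were 36.9% of all genes. Mt1 and Mt2 are among the 5 and were chosen for these values, so the count is not independent of them; of the 6 targets outside the 5 genes described, 3 were lower in each pool. These were Ndrg1, a stress-responsive gene, at -0.36 ± 0.20 (limma, adjusted p = 0.83), Csrp1, a LIM domain protein, at -0.24 ± 0.17 (limma, adjusted p = 0.86), and Gclc, the catalytic subunit of glutathione synthesis, at -0.21 ± 0.18 (limma, adjusted p = 0.87). At Ndrg1 and Csrp1 the groups did not overlap, with ProMyo lower, as at 15.7% of all genes. Selenow stood at -0.01 and the iron exporter Slc40a1 at -0.08. The last of the 6 was Slc39a10, which MTF-1 is known to repress, at -0.47 with opposite signs in the pools. Slc39a10 is counted here with the induced targets, also among the 7 lower without saline 5-8 and in the list median. The list median was -0.24, with -0.40 in pool 1-4 and -0.09 in pool 5-8.

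Glucocorticoid-responsive genes, tested since steroids induce metallothioneins, had a negative difference in each pool for 7 of 22 and a positive one for 5, where all genes gave 24% and 29%, with a median of 0.02 and no gene called by limma. Cebpd, a transcription factor, read -0.53 ± 0.28 (limma, adjusted p = 0.83), and Errfi1, a feedback inhibitor of EGF receptor signalling, -0.40 ± 0.19 (limma, adjusted p = 0.83), both with groups that did not overlap. Cdkn1a, a cell cycle inhibitor, stood at -0.52 ± 0.30, again without overlap, and Per1, of the clock, at 0.35 ± 0.26. Of the 22 genes, 4 had both ProMyo arrays below both saline arrays and 2 had both above, against 15.7% and 17.8% of all genes. Fkbp5 and Tsc22d3, common markers of glucocorticoid action, stood at -0.11 and -0.0041. Of the genes of the IL-6 and acute phase response, which is known to induce Slc39a14, 15 of 20 were tested. Of these 15, 2 were lower in each pool and 2 higher in each, against 24% and 29% of all genes. Again limma called 0. Socs3, a feedback inhibitor of this pathway, differed by 0.03 and -0.48 in the pools, and the receptor chain Il6st by 0.02 on average.

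The genes with the pattern over the 4 arrays most like Mt1, by the Euclidean distance of values centred per gene, were Tmem242 (0.049), Cebpa (0.073), Pheta1 (0.109), Junos (0.128) and Zfp449 (0.186). For Mt2 they were Zswim1 (0.072), Miga1 (0.086), Nf2 (0.089), Arhgap30 (0.089) and Serpinb1a (0.089). Mt2 was the 38th most like Mt1 of 15101 genes, at a distance of 0.329, and Mt1 was the 208th most like Mt2. The order is a description over 4 arrays.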

How the data were processed

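The authors deposited log2 expression values per probe set from 4 Affymetrix mouse genome arrays, which the submitters' processing notes credit to RMA and the Affymetrix Expression Console; versions and log base are not given there, and values of -0.45 to 13.2 were read as log2. Per the labels' protocols, RNA was labelled with Nugen kits. Of 45101 probe sets, 34958 had 1 gene symbol, and no gene was named from the 932 with several or the 9211 with none. Each gene was taken at its brightest probe set by the mean of the 4 arrays. After removal of 64 array controls and of probe sets averaging under the 25th percentile (0.45), 15102 genes remained. Differences between ProMyo and saline were fitted with limma 3.58.1 (R 4.3.3), with 2 residual degrees of freedom; genes with a Benjamini-Hochberg adjusted p under 0.05 were called. The fit was checked on simulated arrays. Same-numbered pools hold both legs of the same mice and are paired by the design. Their deviations correlated with r = 0.158 across genes. The main fit did not use this pairing. Each SE and adjusted p is from that unpaired fit unless the pool as a block is named. Promoter sequences and gene positions came from RefSeq tables of GRCm38.p6, in which 4 of the 5 genes had a window. Arrays have no read depth; their number limits the precision.

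The 5 genes and the gene lists were chosen with earlier results of these data known. Besides the 5 genes, every transporter and metallothionein could be named. From every other list, up to 4 genes with the largest difference of 1 sign in both pools could be named. Selenow, Slc40a1, Fkbp5, Tsc22d3, Socs3 and Il6st were added for their known roles after their values were seen. Markers named for a low level, such as Itgam, were added as well. Alternatives were the pool as a block, 2 other filters, a variance trend, median centring, quantiles, averaged probe sets, other thresholds, and leaving out each array.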

Additional observations from a re-analysis of the deposited data

How the results depend on the processing

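With the pools as a replicate block, limma also called 0 genes (1039 at an unadjusted p under 0.05), and the differences of the 5 genes, such as -0.83 for Mt1, have the same size by construction. The count of 0 held under each alternative run. Mt1 and Mt2 kept a negative and Slc39a14 a positive sign in 8 of 8 alternatives each. For these 3 genes most of that count was fixed in advance. Their groups did not overlap, so neither the block nor leaving out an array could change the sign. Mt2 also has a single probe set, which is its own mean. The count is therefore no support for the differences. Mtf1 and Slc30a1 kept their sign in 7 of 8, the exception being the fit without saline 1-4. With the mean of the probe sets, Mt1 read -0.37 and Slc39a14 0.12, since probe sets near the background enter the mean. Quantile normalization gave 0.46 for Slc39a14. Leaving out each array gave -1.14 to -0.52 for Mt1, -0.92 to -0.41 for Mt2, -0.35 to 0.24 for Slc30a1, -0.12 to 0.043 for the exporter median and -0.13 to 0.15 for the importer median; the cause was not tested. The 85 genes lower by 1.5-fold in both pools became 2 at 2-fold and 167 to 411 without an array, where both differences share an array. The 2375 genes whose ProMyo arrays both lay below both saline arrays became 4130 to 5572 with 3 arrays. Without saline 5-8, a setting added after the data were seen, 10 zinc transporters were lower in both comparisons in place of 5. Differences at probe sets near the Bacillus controls are limited by the background as well as by the number of arrays.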

Other observations

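Neighbouring metal and stress pathways were counted in the same way, and limma called 0 genes in each. Iron and copper handling genes had a positive difference in each pool for 6 of 18 and a negative one for 1, where 29% and 24% of all genes did, with a median of 0.10. Slc11a2 (DMT1), which carries iron and other divalent metals into cells, read 3.34 and 3.13 in ProMyo and 2.85 and 2.54 in saline arrays, a difference of 0.54 ± 0.19 (limma, adjusted p = 0.82). Slc31a1, the copper importer, stood at 0.39 ± 0.23, with 0.04 and 0.74 in the pools, and Atp7b, a copper-exporting ATPase, at 0.42 ± 0.19. Atox1, the chaperone that hands copper to such ATPases, stood at -0.47 ± 0.24, with -0.05 and -0.89 in the pools.

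Genes of the Nrf2 and oxidative stress response had no common direction, with a median of 0.02. In both pools 3 of 17 were lower and 4 higher, against 24% and 29% of all genes. Hmox1, heme oxygenase, read 2.27 and 2.23 in ProMyo against 1.76 and 1.85 in saline arrays, a difference of 0.44 ± 0.16 (limma, adjusted p = 0.82). Both ProMyo arrays lay above both saline arrays, as at 17.8% of all genes. Gpx3, a secreted glutathione peroxidase, stood at -0.55 ± 0.18, and Gsta4 at 0.35 ± 0.16. Of 18 muscle atrophy genes, 5 were lower and 7 higher in both pools, against the same 24% and 29%, with a median of 0.05. Gadd45a stood at 0.82 ± 0.15, Cdkn1a, also named above, at -0.52 ± 0.30, Fbxo21 at 0.36 ± 0.22 and Fbxo31 at -0.27 ± 0.19.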
